A study of Homo sapiens with 6 samples.

Results

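The transcripts described here are those of YAP and TAZ, of their DNA-binding partners TEAD1 and TEAD4, of the kinase LATS2 and of 5 target genes of these factors. They were chosen by name as 5 regulators (YAP1; WWTR1, which encodes TAZ; TEAD1; TEAD4; LATS2) and 5 targets (CCN1 and CCN2, the newer symbols of CYR61 and CTGF; ANKRD1; AMOTL2; AXL). This choice was made with earlier results of these data known. All 10 were among the 19198 genes of the deposited RNA-Seq table and among the 16988 genes tested. The study measured total RNA, freed of ribosomal RNA, from MCF10A cells, an established line of non-tumorigenic mammary epithelial cells grown as a monolayer. The 3 control samples were grown in 5% horse serum with EGF at 20 ng/ml, hydrocortisone at 0.5 µg/ml, insulin at 10 µg/ml and cholera toxin at 100 ng/ml, and the 3 depleted samples in the same serum without these 4 factors. The comparison asks which transcripts differ when the factors are withdrawn, a treatment that the study used as a model of epithelial-to-mesenchymal transition. Whether replicates came from separate cultures is not stated, so the p-values measure the spread between these samples, which may be technical. The day of RNA collection is not given.

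YAP and TAZ are coactivators at the end of the Hippo pathway, a kinase cascade that links cell contact, shape and adhesion to transcription. The kinases LATS1 and LATS2 phosphorylate YAP and TAZ, which are then held in the cytoplasm or degraded. When not phosphorylated, YAP and TAZ enter the nucleus and bind TEAD proteins, which carry the DNA-binding domain. CCN1, CCN2 and ANKRD1 are widely used transcript readouts of this step, and LATS2 and AMOTL2 are both targets and inhibitors of YAP and TAZ. In mammary epithelial cells, TAZ and YAP are known for their ties to stem-like and mesenchymal traits. RNA levels do not report phosphorylation or location of the proteins.

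The base string GGAATG, or CATTCC on the other strand, is the core of the MCAT element that TEAD proteins recognise. It was searched on both strands in the 250 bases before each transcription start listed by RefSeq on GRCh38.p14. Of the 10 genes 7 had an entry (YAP1, WWTR1, LATS2, CCN2, ANKRD1, AMOTL2 and AXL), and TEAD1, TEAD4 and CCN1 had none. The 4 sequences below are printed 5′ to 3′ on the strand of the gene, with matches in capitals, because they span the range from most matches to none. The CCN2 promoter is chr6:131951373-131951622 on the minus strand, the ANKRD1 promoter chr10:90921088-90921337 on the minus strand, the YAP1 promoter chr11:102110197-102110446 on the plus strand and the promoter of the first AXL start chr19:41218973-41219222 on the plus strand.
CCN2: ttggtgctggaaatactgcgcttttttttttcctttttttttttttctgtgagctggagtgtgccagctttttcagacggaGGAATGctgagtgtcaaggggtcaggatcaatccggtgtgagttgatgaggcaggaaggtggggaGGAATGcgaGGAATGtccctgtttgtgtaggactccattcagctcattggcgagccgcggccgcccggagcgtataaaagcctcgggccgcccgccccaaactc
ANKRD1: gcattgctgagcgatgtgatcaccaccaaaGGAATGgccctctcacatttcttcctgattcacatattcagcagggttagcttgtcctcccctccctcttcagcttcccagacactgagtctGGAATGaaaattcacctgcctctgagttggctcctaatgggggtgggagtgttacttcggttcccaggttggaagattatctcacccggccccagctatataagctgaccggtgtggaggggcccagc
YAP1: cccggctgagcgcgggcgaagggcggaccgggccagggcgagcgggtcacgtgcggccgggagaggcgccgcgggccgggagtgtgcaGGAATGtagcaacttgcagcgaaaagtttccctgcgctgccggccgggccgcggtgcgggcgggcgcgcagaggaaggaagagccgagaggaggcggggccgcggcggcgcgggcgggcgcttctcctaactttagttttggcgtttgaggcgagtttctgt
AXL: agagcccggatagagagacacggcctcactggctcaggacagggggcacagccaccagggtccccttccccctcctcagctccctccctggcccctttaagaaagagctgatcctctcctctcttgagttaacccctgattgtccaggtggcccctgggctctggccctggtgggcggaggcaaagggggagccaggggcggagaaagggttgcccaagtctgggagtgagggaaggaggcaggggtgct

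CCN2 held 3 matches, which began at bases -169, -104 and -95 from the start, so that the last pair lay close together. ANKRD1 held 2 matches, at -220 and -128, and YAP1 held 1 at -162. AMOTL2 and AXL each had a second listed start, with 1 match at -69 and 1 at -212, both as CATTCC. The first starts of AMOTL2 and AXL, both starts of WWTR1 and the start of LATS2 held none. Among the 16156 promoters of genes tested, 10.1% held at least 1 match, 0.730% at least 2 and 0.0619% at least 3. Over all 35116 promoters listed these shares were 11.9%, 0.940% and 0.0826%. These matches describe the letters in the window, and no binding of any factor was measured in these files.

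The deposited values are normalized counts, reads per gene divided by a size factor of the sample and not by gene length. Depth was between 7472418 and 28672630 reads on genes per sample, and 3 reads corresponded to 1.76 to 6.71 normalized counts (counting error only). CDH1, the gene of E-cadherin, had 20039, 13132 and 12961 normalized counts in control samples. Depleted replicate 1 stood apart with 609.6, while depleted replicates 2 and 3, at 13234 and 13118, lay within the control range. CDH1 was not called (log2 difference -1.67, limma adjusted p = 0.448). The basal and luminal markers did not all follow CDH1. KRT5 was also lowest in depleted replicate 1 (562, against 10908 and 14996), but KRT14 was highest in it (980, against 193 and 306). The labels name luminal ductal cells, and the luminal markers KRT8 and KRT18 were present in every sample beside the basal markers KRT5, KRT17 and TP63. The summed level of 9 fibroblast markers was between 814 and 1721 normalized counts in control samples and between 15875 and 35317 in depleted samples. Single members ranged in control samples from THY1, at 0 to 0.984 normalized counts, to FAP, at 509 to 1270, and none of the 9 was at 0 in every sample. Of the 8 tested 6 were called higher (over all genes tested 4.36%, and 1.97% lower). Among these 6, LUM, PDGFRA and PDGFRB passed the minimum mean of 10 only through the depleted samples. This summed level separated the groups that every comparison here uses, and its part in the results was not tested. Of 6 basal and 8 luminal markers limma called TP63 and KRT19 lower and none higher, each in 3 of the 6 fits that left out 1 sample. The adjusted p of TP63 was 0.0524, 0.0601 and 0.0664 without control replicate 1, control replicate 2 and depleted replicate 3, and that of KRT19 0.0833, 0.0915 and 0.0878 without control replicate 1, depleted replicate 2 and depleted replicate 3. Of 8 proliferation markers limma called 0, with 0 at an unadjusted p under 0.05 and 0 calls by edgeR or DESeq2. Over all genes tested 6.33% were called and 20.0% had such a p, so these counts do not show that the markers were unchanged. Their median log2 fold change was -0.69, with 2 of the 8 positive. CCNB1 and CDK1 were each called lower in 1 of the 6 fits that left out 1 sample (limma adjusted p = 0.0119 and 0.0132). Of 5 immune markers, 2 were in the table, at a summed 9.37 to 26.3 normalized counts. The summed level of 4 endothelial markers overlapped between groups. Of the 3 tested CDH5 was called higher, but it passed the minimum mean only through the depleted samples, and its call was lost without control replicate 1, control replicate 2, depleted replicate 2 or depleted replicate 3 (adjusted p = 0.0623, 0.0842, 0.146 and 0.143). In bulk RNA, fewer cells of a type and less RNA per cell cannot be told apart.

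Without growth factors 6 of the 10 transcripts were called higher and none lower by limma, where a call needed a change of 2-fold or more and a p under 0.05 after Benjamini-Hochberg adjustment. Over all 16988 genes 6.33% were called, 4.36% higher and 1.97% lower. All 5 targets were called higher (median log2 difference 4.12), as was WWTR1 among the 5 regulators (median 0.41). Among these calls that of ANKRD1 is no more than a description, since ANKRD1 passed the minimum mean of 10 only through the depleted samples. The median of the 10 was 1.28, against -0.029 over all genes tested. In 7 of the 10 genes every depleted sample was above every control sample, and in none was it the reverse. Over all genes tested 13.5% did not overlap with the depleted samples higher and 12.1% with them lower. Because the 10 genes and the lists below were chosen with earlier results of these data known, such comparisons with all genes are descriptions only. The count of 6 fell to 3 without depleted replicate 2 and to 4 without control replicate 1, depleted replicate 1 or depleted replicate 3.

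**Figure D1:**
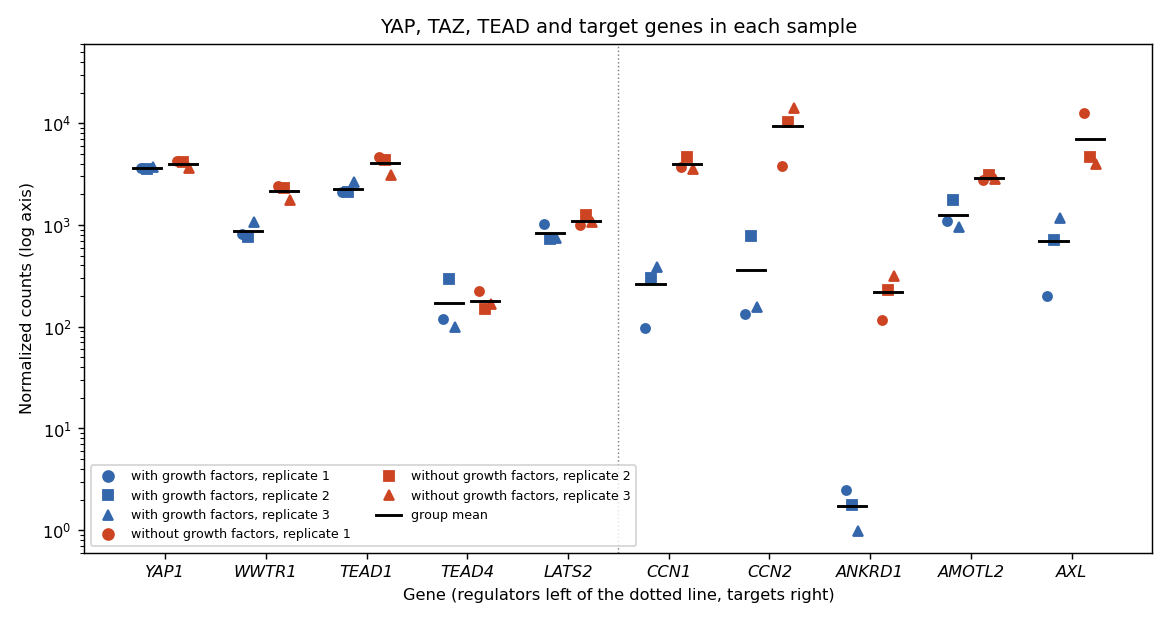
Normalized counts (log axis) of the 10 transcripts in each of the 3 samples with and 3 samples without growth factors, with horizontal bars at the group means. The targets on the right of the dotted line separate by group in all 5 genes, while among the regulators on the left WWTR1 and TEAD1 do.

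YAP1 (chromosome 11, 102110447 to 102233424, plus strand, hg38) showed little spread in control samples, at 3627, 3541 and 3690.0 normalized counts. Depleted samples had 4230.5, 4123 and 3602 normalized counts. The groups overlapped, since depleted replicate 3 lay within the control range. Its change was 0.14 ± 0.26 on the log2 scale (SE, n = 3 per group), with a 95% interval of -0.46 to 0.73 and a limma adjusted p of 0.833. Between 1611 and 6289 reads stood behind each value.

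WWTR1 (chromosome 3, 149517235 to 149736714, minus strand), the gene of TAZ, had 808, 763 and 1071 normalized counts with growth factors. Without growth factors it had 2431, 2326 and 1746 normalized counts. Every depleted sample was above every control sample. The group means were 881 ± 166 and 2168 ± 369 normalized counts (SD, n = 3), and the log2 fold change was 1.30 ± 0.28 (SE), with a 95% interval of 0.66 to 1.94 and a limma adjusted p of 0.0302. This call held without control replicate 3 (adjusted p = 0.0129). It was lost without control replicate 1 (0.103), control replicate 2 (0.0948), depleted replicate 1 (0.0869), depleted replicate 2 (0.139) or depleted replicate 3 (0.0827), as adjusted p of limma, and with limma without its trend (0.0683). The antisense gene WWTR1-AS1 held 0.377% to 2.17% of the WWTR1 value in any sample.

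The number of WWTR1 counts per YAP1 count does not depend on the size factors. It was 0.223, 0.216 and 0.291 in control samples. In depleted samples it was 0.575, 0.564 and 0.485, so the groups did not overlap. The difference in log2 ratio was 1.16 (exact two-sided permutation p = 0.1, the smallest that 3 against 3 samples can give, and 0.4 adjusted over the 4 ratios tested). It was between 1.08 and 1.30 when any 1 sample was left out.

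TEAD1 (chromosome 11, 12674421 to 12944737, plus strand) had 2108, 2091 and 2629 normalized counts with growth factors, against 4659, 4300.5 and 3090.1 after their removal. The groups did not overlap, although depleted replicate 3 was near the highest control sample. TEAD1 differed by 0.81 ± 0.29 in log2 (SE, n = 3 per group) and was not called (limma adjusted p = 0.154). TEAD4 (chromosome 12, 2959330 to 3040676, plus strand) had 120.3, 294 and 99.4 normalized counts with growth factors, against 225, 148 and 168 after their removal. Its groups overlapped, and control replicate 2 was the highest sample. Its log2 fold change, 0.22 ± 0.47 (SE, limma adjusted p = 0.853), changed sign to -0.082 without control replicate 3.

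LATS2 (chromosome 13, 20973036 to 21061586, minus strand), which phosphorylates YAP and TAZ, had 1018, 735 and 751 normalized counts with growth factors, against 996, 1250.4 and 1059.8 after their removal. The groups overlapped through control replicate 1. LATS2 differed in log2 by 0.41 ± 0.27 (SE, n = 3 per group, limma adjusted p = 0.463), with a 95% interval of -0.21 to 1.03. The log2 ratio of LATS2 to its paralogue LATS1 differed by -0.0060 between groups (exact two-sided permutation p = 1), and that of TEAD1 to TEAD4 by 0.58 (exact two-sided permutation p = 0.4).

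CCN1 (chromosome 1, 85580761 to 85584589, plus strand) encodes CYR61, a secreted matrix-associated protein that binds integrins. Its samples held 96.5, 301 and 388 normalized counts with growth factors, against 3689.5, 4631 and 3551 after their removal. The lowest depleted sample was far above the highest control sample, and the depleted samples were close to one another. On the log2 scale CCN1 rose by 4.12 ± 0.49 (SE, n = 3 per group, limma adjusted p = 0.00268). Leaving out any 1 sample kept the call, and without control replicate 1, the lowest sample, the log2 fold change was 3.52.

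CCN2 (chromosome 6, 131948176 to 131951372, minus strand) encodes CTGF, a related secreted protein known in fibrosis, and its promoter is printed above with 3 matches to GGAATG. Its samples held 133, 786 and 155 normalized counts with growth factors, against 3826, 10243 and 14066 after their removal. The groups did not overlap, but the samples within each group were spread more widely than for CCN1. On the log2 scale CCN2 rose by 5.01 ± 0.72 (SE, n = 3 per group), with a 95% interval of 3.36 to 6.66 and a limma adjusted p of 0.00573. The call held without any 1 sample, and the log2 fold change was 5.82 without control replicate 2, which had the highest control value. The log2 ratio of CCN1 to CCN2 overlapped between groups (difference -0.89, exact two-sided permutation p = 0.5).

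ANKRD1 (chromosome 10, 90912096 to 90921087, minus strand) encodes a nuclear ankyrin repeat protein known from stretched muscle. With growth factors it had 2.51, 1.76 and 0.984 normalized counts, which are 2, 3 and 1 reads. Without growth factors it had 115, 228 and 318 normalized counts, which are 126, 348 and 142 reads. ANKRD1 passed the minimum mean of 10 only through the depleted samples. The summed reads were 6 against 616, a ratio of 118 once scaled by the size factors, with an exact 95% interval of 53.9 to 323 that covers counting error only. The limma log2 fold change of 6.25 ± 0.59 (SE, n = 3 per group, adjusted p = 0.00115) depends on the pseudocount, being 4.19 with a pseudocount of 10 and 6.96 by edgeR on recovered reads. The call held under each of these settings and without any 1 sample. Since ANKRD1 entered the test only through its high depleted values, this call is no more than a description.

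AMOTL2 (chromosome 3, 134355347 to 134375479, minus strand) encodes an angiomotin that binds YAP and TAZ and holds them at junctions. Its samples held 1093, 1741 and 957 normalized counts with growth factors, against 2789, 3099 and 2855 after their removal. The groups did not overlap, and the depleted samples were closer together than the control samples. The log2 change of 1.25 ± 0.30 (SE, n = 3 per group, limma adjusted p = 0.0464) was close to the threshold and missed it by edgeR (adjusted p = 0.0522). The call held without control replicate 2 (0.0326) or control replicate 3 (0.0403). It was lost without control replicate 1 (0.146), depleted replicate 1 (0.0941), depleted replicate 2 (0.178) or depleted replicate 3 (0.166), as adjusted p of limma, and with limma without its trend (0.0917).

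AXL (chromosome 19, 41219223 to 41261766, plus strand) encodes a receptor tyrosine kinase of the TAM family often found in mesenchymal cells. Its samples held 199, 704 and 1162 normalized counts with growth factors, against 12467, 4651 and 3962 after their removal. The groups did not overlap, and depleted replicate 1, the sample with the least CDH1, was the highest. AXL rose in log2 by 3.48 ± 0.67 (SE, n = 3 per group), with a 95% interval of 1.95 to 5.02 and a limma adjusted p of 0.0198. It was 2.97 without depleted replicate 1 (adjusted p = 0.0489) and 2.76 without control replicate 1 (adjusted p = 0.0432). The call was lost without depleted replicate 2 (adjusted p = 0.0577).

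**Figure D2:**
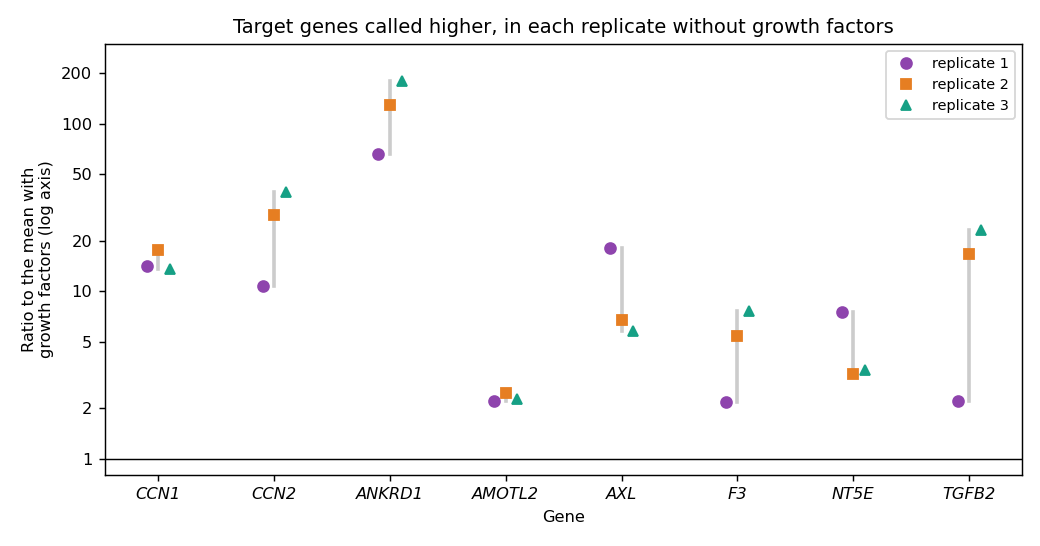
Level of each target gene called higher, in each replicate without growth factors, as a ratio to the mean of the 3 samples with growth factors (log axis, grey lines join the lowest and highest replicate). CCN2, ANKRD1, AMOTL2, F3 and TGFB2 are lowest in replicate 1, AXL and NT5E are highest in it, and the ANKRD1 ratios rest on 6 control reads in all.

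The depleted replicates did not hold the targets in the same order. Against the control mean, depleted replicate 1 had the smallest ratio of CCN2 (10.7, against 28.6 and 39.3 in replicates 2 and 3) and of ANKRD1 (65.9, against 130.4 and 182). The same sample had the largest ratio of AXL (18.1, against 6.76 and 5.76). For CCN1 the 3 ratios were 14.1, 17.7 and 13.6, and for AMOTL2 2.21, 2.45 and 2.26, so these genes varied less among the depleted samples. With 3 samples no test of these orders was made.

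Levels were compared between genes only per kilobase of the Gencode canonical transcript. In control samples YAP1 stood highest of the 10, at 670 ± 13.9 normalized counts per kilobase (SD, n = 3), and its samples did not overlap those of any other member. AMOTL2 (260 ± 86.0), TEAD1 (242 ± 32.4), WWTR1 (175 ± 33.0), CCN2 (153 ± 159), LATS2 (150 ± 28.7), AXL (146 ± 102), CCN1 (115 ± 65.6) and TEAD4 (100.0 ± 62.3) followed, and each overlapped its neighbour in this order except TEAD1 and WWTR1, whose samples did not overlap. ANKRD1 stood below all of them, at 0.977 ± 0.425. In depleted samples CCN2 (4011 ± 2213), CCN1 (1737 ± 258) and AXL (1490 ± 1002 normalized counts per kilobase) stood above YAP1 (738 ± 62.2), in every sample. Among these 3 the neighbours overlapped. Below YAP1 came AMOTL2 (599 ± 33.5), WWTR1 (430 ± 73.2) and TEAD1 (427 ± 87.3), of which only the last pair overlapped. LATS2 (199 ± 23.9), ANKRD1 (123 ± 56.6) and TEAD4 (105 ± 23.4) were lowest, and of these ANKRD1 and TEAD4 overlapped. Over the union of exons in place of the canonical transcript, YAP1 was still first in control samples and CCN2 in depleted samples, while other places changed. WWTR1 was then at 105 and 260 normalized counts per kilobase in control and depleted samples, behind CCN2, LATS2 and AXL in control samples. CCN1 was at 70.8 and 1070.1, behind TEAD4 (75.2) in control samples and behind AXL (1369) in depleted samples.

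**Figure D3:**
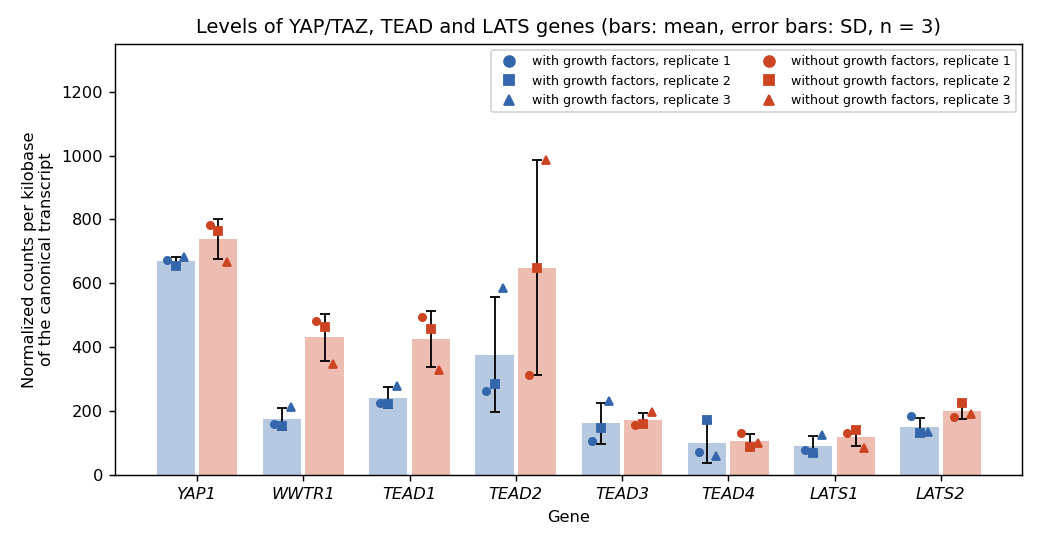
Normalized counts per kilobase of canonical transcript for YAP1, WWTR1, the 4 TEAD genes and LATS1 and LATS2, as bars at the mean, error bars of 1 SD (n = 3) and a point for each sample. YAP1 is the highest of these genes in control samples, and WWTR1 and TEAD1 are the genes whose 3 depleted samples all lie above the control samples.

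The paralogues TEAD2 and TEAD3 had no call, and neither did the 3 VGLL cofactors tested, which compete with YAP and TAZ for TEAD. Of the 4 TEAD genes limma called 0, with 1 (TEAD1) at an unadjusted p under 0.05 and 0 calls by edgeR or DESeq2. Over all genes tested 6.33% were called and 20.0% had such a p, so in lists this short 0 calls is near the share over all genes. TEAD2 was the TEAD gene with the highest level per kilobase in control samples, at 377 ± 180, but its samples overlapped those of TEAD1. VGLL4 differed by 0.62 in log2 (limma adjusted p = 0.305) with groups that did not overlap.

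Of the 35 other Hippo regulators tested, which comprised the TEAD paralogues, the VGLL cofactors, the kinase module and junction proteins, 4 were called higher and 0 lower, and the median log2 fold change was 0.47. In 12 of the 35 the depleted samples were all above the control samples, and in 4 all below. These counts stand beside 4.36% called higher, 1.97% called lower, 13.5% all above and 12.1% all below over all genes tested. At an unadjusted p under 0.05 there were 4 higher and 2 lower, against 20.0% of all genes tested in either direction, while edgeR called 3 higher and 0 lower and DESeq2 4 higher and 1 lower. FRMD6, a membrane-linked FERM domain protein, had 1707, 2107 and 2265 normalized counts with growth factors, against 5722, 13644 and 13004 after their removal (log2 difference 2.32, limma adjusted p = 0.0109). AJUBA and WTIP encode LIM proteins that bind LATS kinases. AJUBA had 1011, 1071 and 1525 normalized counts with growth factors, against 3661, 3312 and 3539 after their removal (log2 difference 1.57, limma adjusted p = 0.0128). WTIP had 86.5, 214 and 278 normalized counts with growth factors, against 843, 806 and 1008 after their removal (log2 difference 2.34, limma adjusted p = 0.0186). In none of these 3 genes did the groups overlap. FAT4, an atypical cadherin, had 640.4, 186 and 422 normalized counts with growth factors, against 1908, 1714 and 946 after their removal, with a limma adjusted p of 0.0499928 that lies at the threshold (log2 fold change 1.98) and 0.0579 by edgeR.

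These 4 calls depended on single samples, given here as limma adjusted p without each sample that ended a call. FRMD6 was lost without control replicate 1 (0.0504), depleted replicate 2 (0.0573) or depleted replicate 3 (0.0551), and AJUBA without the same samples (0.0537, 0.0632 and 0.073). WTIP was lost without depleted replicate 2 (0.071) or depleted replicate 3 (0.0872). FAT4 was lost without control replicate 2 (0.103), depleted replicate 1 (0.131), depleted replicate 2 (0.176) or depleted replicate 3 (0.0747).

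The kinase module runs from TAOK and MST kinases to LATS1 and LATS2. Of its 11 genes limma called 0, as did edgeR and DESeq2. Over all genes tested limma called 6.33%, so in a list this short 0 calls is near that share. At an unadjusted p under 0.05 there was 1 gene, which was lower, against 20.0% of all genes tested in either direction. That gene was TAOK3, an upstream kinase, with 1490.1, 1509 and 1345 normalized counts with growth factors, against 617, 784 and 754 after their removal. Its groups did not overlap, and its log2 fold change of -1.02 had a limma adjusted p of 0.0524. The polarity gene DLG5 had 8461, 4386 and 13321 normalized counts with growth factors, against 2360, 2818 and 2484 after their removal (log2 difference -1.63, limma adjusted p = 0.0561), with no overlap. SAV1, the scaffold of the MST kinases, and MAP4K4, a kinase that acts on LATS, had log2 fold changes of 0.59 and 0.62 (limma adjusted p = 0.323 and 0.288).

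Of the 23 other targets tested, 3 were called higher and 1 lower (over all genes tested 4.36% and 1.97%), and the median log2 fold change was 0.66. F3, the tissue factor gene, had 2829, 5604 and 3863 normalized counts with growth factors, against 8893, 22078 and 31368 after their removal (log2 difference 2.22, limma adjusted p = 0.0395). NT5E, which encodes the ectonucleotidase CD73, had 639, 2310.0 and 761 normalized counts with growth factors, against 9284, 3975 and 4157 after their removal (log2 difference 2.36, limma adjusted p = 0.0386). TGFB2, a ligand of the TGFβ family, had 929.9, 503 and 429.9 normalized counts with growth factors, against 1369, 10403 and 14469 after their removal (log2 difference 3.33, limma adjusted p = 0.047). In all 3 genes the groups did not overlap, but leaving out single samples ended the calls. The limma adjusted p of F3 was 0.142, 0.0629, 0.148 and 0.146 without control replicate 1, control replicate 2, depleted replicate 2 and depleted replicate 3. The call of NT5E held only without control replicate 2 (0.0134), and its adjusted p was between 0.057 and 0.137 without any other sample. That of TGFB2 held only without depleted replicate 1 (0.00253), and its adjusted p was between 0.0699 and 0.165 without any other sample.

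AREG, which encodes the EGF receptor ligand amphiregulin and is listed among YAP targets, moved the opposite way to the 5 targets above. Its samples held 949.96, 3951 and 566 normalized counts with growth factors, against 85.1, 59.0 and 82.7 after their removal, with no overlap. The log2 fold change was -4.09 ± 0.65 (SE, n = 3 per group, limma adjusted p = 0.0084), and the call held without any 1 sample. THBS1, the thrombospondin-1 gene, had 37802, 15927 and 5517 normalized counts with growth factors, against 58333, 107670 and 130565 after their removal, and was not called despite a log2 difference of 2.65 (limma adjusted p = 0.0741). In the published signature of 22 YAP/TAZ targets, which holds LATS2 and the 5 targets described here, 8 were called higher and none lower, against 4.36% and 1.97% of all genes tested. The median log2 difference was 1.19, and of the 22 genes FOXF2 alone was negative, at -0.25. Of the 8 calls, 5 were those of the targets described above, and the rest were F3, NT5E and TGFB2. Among these 5, that of ANKRD1 is no more than a description. Of the 7 targets tested outside the signature 0 were called higher and 1, AREG, lower. Their median log2 difference was 0.16, with 4 of the 7 positive. DKK1, also outside the signature, was lower without overlap but not called (log2 difference -1.24, limma adjusted p = 0.129).

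**Figure D4:**
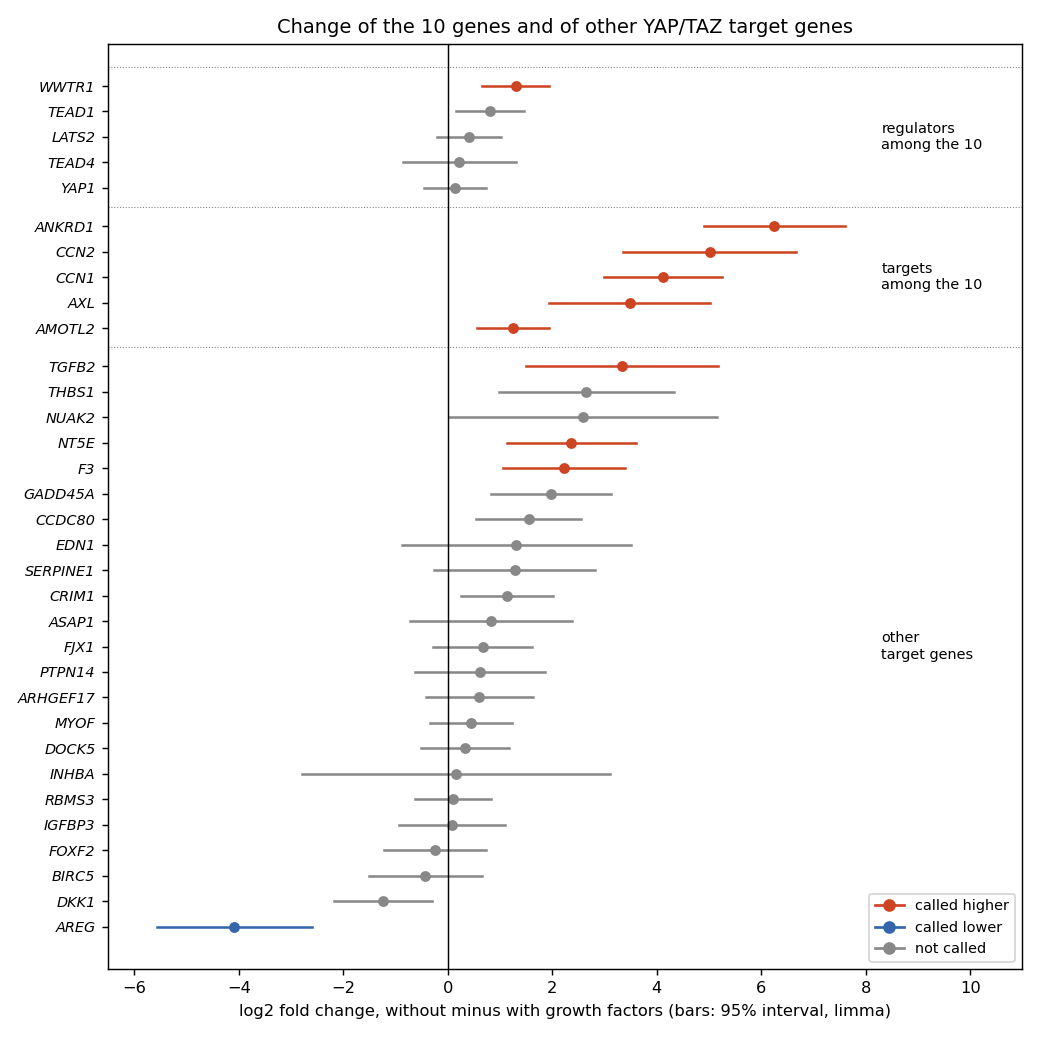
log2 fold change, without minus with growth factors, of the 10 genes and of 23 other YAP/TAZ targets, with 95% intervals from limma as bars and genes coloured by call. The 5 targets among the 10 lie between 1.25 and 6.25, YAP1, TEAD4 and LATS2 have intervals that include 0, and AREG alone is called lower.

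For each of the 10 genes the transcripts with the most similar pattern were searched among the 11687 genes that averaged at least 100 normalized counts. The measure was the root mean square difference of log2 values, each gene centred on its own mean, over the 6 samples, so a small value says that samples stand in the same proportions. For WWTR1 the closest were BEND6 (0.064), the nuclear receptor gene NR2F2 (0.072) and the transcription factor gene ETS1 (0.088). For CCN1 they were SYNPO (0.30), MANCR (0.31) and EHD3 (0.39), for CCN2 ADAM19 (0.42), CACNG4 (0.56) and NFE2L3 (0.65), and for ANKRD1 MMP2 (0.20), IGFBP7 (0.45) and MYLK (0.48). MMP2, a secreted gelatinase, had 133, 102 and 71.8 normalized counts with growth factors, against 5181, 12237 and 11625 after their removal. For AXL the closest included ZCCHC24 (0.13) and MRC2 (0.30), and for AMOTL2 they were MIR4435-2HG (0.11), FZD8 (0.11) and EHD1 (0.14). ZCCHC24 had 27.6, 86.1 and 128 normalized counts with growth factors, against 1435, 507 and 487 after their removal, so that depleted replicate 1 was highest and control replicate 1 lowest, as for AXL. The regulators with little change also had close matches, with ARL14EP (0.065) for YAP1, ZNF275 (0.11) for TEAD1, CDCA3 (0.11) for TEAD4 and ZNF200 (0.064) for LATS2.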

How the data were processed

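Total RNA of MCF10A cells was depleted of ribosomal RNA and sequenced from strand-specific libraries as single-end reads of 100 bases. The authors aligned the reads with TopHat2 (hg38) and used HTSeq 0.6 with Gencode v22 for counting. Counts were then scaled by the authors with size factors from DESeq2 1.8.1. The strand setting of the counting is not given in the sources used here, so reads of a gene and of an overlapping antisense gene cannot be told apart. The deposited signal values are thus normalized counts per gene. All values (100%) were whole multiples of the value of 1 read within 0.001, so whole reads were recovered. Of the 19198 identifiers 18913 were named through Gencode v44 (hg38) and 285 stayed without a name. Promoter sequences came from RefSeq on GRCh38.p14.

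The 3 depleted samples were compared with the 3 control samples, grouped by the labels, although the design text of the series speaks of 2 replicates, using limma 3.58.1 in R 4.3.3 with a mean-variance trend, on log2 of the normalized count plus 1, for genes with a mean of at least 10, without covariates. p-values were adjusted (Benjamini-Hochberg) over all 16988 genes tested, and a gene was called when it changed 2-fold or more with an adjusted p under 0.05. limma called 1076 genes. On recovered reads edgeR 4.0.16 called 971 genes and DESeq2 1.42.0 called 2112. Single ratios had an exact permutation test. The limma script was tested on simulated data. Exact tests used scipy 1.17.1 and figures matplotlib 3.10.9, in Python 3.11.15.

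The 10 genes and the lists of regulators, targets and markers were chosen with earlier results of these data known. Outside the 10, genes were named where called, or where among the 2 highest or 2 lowest of their list, or within the 3 most similar to a member. One gene that this rule names is not reported here. A few others are named as examples after their values were seen (CDH1, THY1, FAP and keratins). The deposited table lists normalized counts only for these 6 samples, and no column was left out.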

Additional observations from a re-analysis of the deposited data

How the results depend on the processing

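The settings tried were edgeR and DESeq2 on recovered reads, other pseudocounts (0.5 and 10), other filters (none, or a mean of 50 or more), other scalings (the same total for each sample, or quantiles), limma with no trend, a replicate block, omission of each sample in turn and, for counts, an adjusted p under 0.1. Of the 160 log2 fold changes of the 10 genes under these settings, 144 kept their direction and side of the threshold, 15 kept the direction but lost the call and 1 changed sign. Of 635 for other genes named from the regulator, target, CCN and TAM lists and for the markers called, 564 kept both, 48 lost the call, 15 gained it and 8 changed sign. The number of the 10 genes called was 3 to 6 with 1 sample left out, 4 without the trend (WWTR1 and AMOTL2 lost) and 5 by edgeR (AMOTL2 lost). The other Hippo regulators called numbered 0 to 6 with 1 sample left out. They were 0 by limma without depleted replicate 2 or 3 (7 and 6 at an unadjusted p under 0.05), where edgeR and DESeq2 were run on the 6 samples only. The other targets called numbered 1 to 8 with 1 sample left out, 1 without the trend, 9 by DESeq2 and 7 at an adjusted p under 0.1, against 4. All genes called numbered 453 to 2474 with 1 sample left out, 2112 by DESeq2 and 1706 at an adjusted p under 0.1, against 1076. The cause of these moves was not tested.

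The changes of sign were all in genes without a call. Over the fits that omit 1 sample, the log2 difference was -0.082 to 0.69 for TEAD4, -0.11 to 0.45 for TEAD3, -0.42 to 0.17 for VGLL3, -1.92 to 0.13 for CRB3, -0.45 to 0.14 for FOXF2 and -0.24 to 0.52 for IGFBP3. IGFBP3 was -0.036 by edgeR and -0.066 by DESeq2. The median log2 fold change of all genes was -0.029, 0.019 after rescaling to equal totals and -0.071 after quantile normalization, and no call of the 10 genes changed with either.

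The labels number replicates 1 to 3 in both groups. After group means were removed, same-numbered samples correlated at -0.073, -0.28 and -0.32 across genes, so the numbers did not pair the samples. With the replicate number as a block, 4 of the 10 genes, 4 other Hippo regulators, 5 other targets and 967 genes in all were called. WWTR1 (adjusted p = 0.0985) and AMOTL2 (0.108) were not called in that fit. No sample correlated best with its own number.

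Depth limits ANKRD1 in control samples (1 to 3 reads). With 3 samples a group, exact tests of single ratios cannot pass the threshold, and leaving out 1 of the 3 leaves a pair against 3.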

Other observations

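Relatives and partners of the targets showed further large differences. CCN3, a CCN family gene known for effects opposed to those of CCN2, had 5.01, 4.10 and 6.89 normalized counts with growth factors, against 133, 512 and 226 after their removal (log2 difference 5.32, limma adjusted p = 0.00211). CCN3 passed the minimum mean of 10 only through the depleted samples, so its call is no more than a description. CCN5 went the other way, at 807, 1266 and 1577 normalized counts with growth factors, against 15.6, 374 and 427 after their removal, with no overlap, but this was not called (log2 difference -3.08, limma adjusted p = 0.158). CCN4 had every depleted sample above every control sample but was not called (log2 difference 3.68, limma adjusted p = 0.0698). It too passed the minimum mean of 10 only through the depleted samples. Of the 5 CCN genes tested, CCN1, CCN2 and CCN3 were called higher and none lower (4.36% and 1.97% of all genes tested). CCN1 and CCN2 are among the 10 genes.

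Ligands of the TAM receptor family, to which AXL belongs, were also higher without growth factors. GAS6, the ligand of AXL, had 1291, 738 and 817 normalized counts with growth factors, against 17344, 9455 and 10965 after their removal (log2 difference 3.72, limma adjusted p = 0.00115), and depleted replicate 1 was highest for GAS6 as for AXL. PROS1, the gene of protein S, a ligand of the related receptors TYRO3 and MERTK, had 202, 113 and 149.5 normalized counts with growth factors, against 764, 917 and 1084 after their removal (log2 difference 2.59, limma adjusted p = 0.0035). The receptor gene TYRO3 differed by 0.35 in log2 (limma adjusted p = 0.718) with overlapping groups. The calls of GAS6 and PROS1 held without any 1 sample.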
